A study of Mus musculus with 4 samples.

Results

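The 10 genes described here are regulators of the integrated stress response: the eIF2 kinases Eif2ak3 and Eif2ak4, the transcription factors Atf4, Ddit3, Atf3, Atf5, Cebpb and Cebpg, and the feedback genes Trib3 and Nupr1. They were taken by gene symbol, and each was measured by 1 probe set, so that 10 of 41345 probe sets and 10 of 26246 tested genes were involved. The cells were J774M, a mouse cell line labelled as myeloid-derived suppressor cells, a class of immature myeloid cell that dampens T cell responses. All were grown in RPMI with serum, and 2 control samples were set against 2 samples exposed to NC06 at 10 uM for 24 h. NC06 inhibits neutral ceramidase, the product of Asah2. The sources used here do not give what was added to the control cells, and a single line was studied with no normal myeloid cells beside it. The comparison asks which genes differ in expression after the inhibitor.

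The integrated stress response starts with kinases that phosphorylate the translation initiation factor eIF2. General protein synthesis then slows, while the mRNA of Atf4 is translated more, and ATF4 induces genes for amino acid supply, tRNA charging and recovery. With lasting stress ATF4 also induces Ddit3, which encodes CHOP, a factor known for promoting cell death. Arrays measure mRNA, so neither eIF2 phosphorylation nor the translation of Atf4 is seen in these values.

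Each array gave a log2 signal per probe set, with array medians of 4.67 to 4.68 in the control group and 4.74 to 4.75 in the NC06 group. The mean signal of the 10 regulators lay between the 66.9th percentile of tested genes for Ddit3 and the 92.5th for Atf4, so none was dim. Of 10 macrophage and monocyte markers all lay above the median signal of tested genes, with Csf1r at 11.43 to 11.59 and Itgam, which encodes CD11b, at 10.53 to 11.51 over the 4 arrays. Of 7 T and NK cell markers 0 did, and the B cell marker Cd79a was at 4.10 to 4.60, although Ighm, the immunoglobulin mu chain, was at 11.52 to 11.94. The granulocyte markers were mixed: Mpo was at 4.15 to 4.28, while Ly6g, the granulocyte surface marker, read 5.97 and 6.10 in control cells and 7.44 and 7.39 in NC06 cells. The samples are bulk RNA, in which fewer cells of a type and less RNA per cell cannot be told apart. Since no label says whether the 2 samples of a group were separate cultures, the spread behind each p-value may be technical.

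Of the 10 regulators, 6 carried lower signal in NC06 cells by more than the arrays of a group differed from each other: Trib3, Nupr1, Atf4, Atf3, Atf5 and Ddit3, in order of size. Their differences ran from -1.34 log2 for Trib3 to -0.45 for Ddit3. The kinases Eif2ak3 and Eif2ak4 and the C/EBP factors Cebpb and Cebpg differed by -0.18 to 0.18 log2, with intervals that included 0. In the fit of limma, a linear model with moderated variances, over all 26246 genes, 0 of the 10 had an adjusted p under 0.05, and neither had any other gene (0%). Within that fit 6 of 10 had an unadjusted p under 0.05 with lower signal and 0 with higher signal, against 7.52% and 7.79% of all tested genes. The groups did not overlap in 9 of the 10, with NC06 lower in 7 and higher in 2, where the same held for 24.4% and 23.3% of all genes. All 10 lay above the median signal of tested genes, where both shares were larger. When only the 13123 genes above it were fitted, 3899 had an unadjusted p under 0.05 in either direction. The groups did not overlap in 60.2% of those genes. The median difference of the 10 was -0.46 log2, and that of all tested genes was 0.002.

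**Figure D1:**
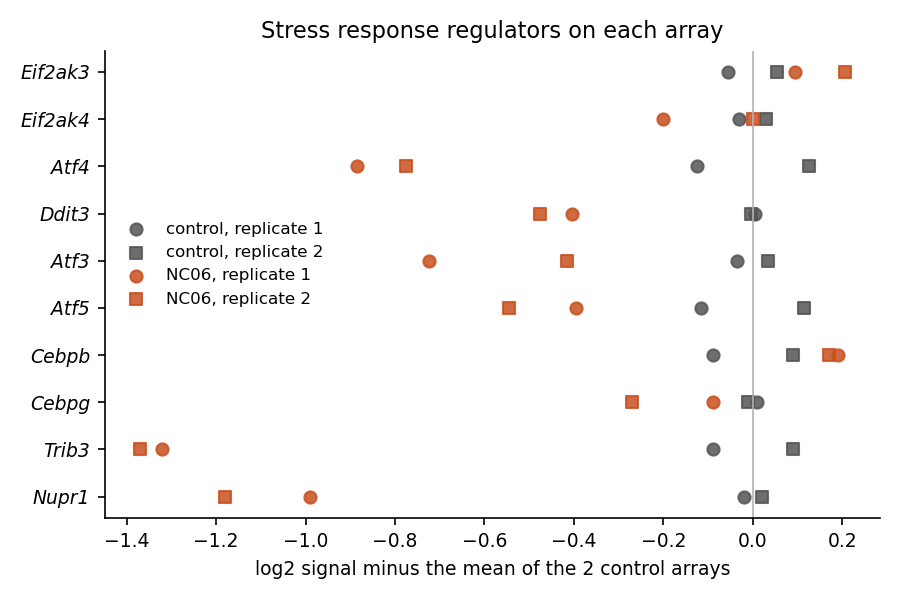
Log2 signal of each regulator on each of the 4 arrays, given relative to the mean of the 2 control arrays of that gene (grey, control; orange, NC06; circles, replicate 1; squares, replicate 2). The NC06 points of Trib3, Nupr1 and Atf4 stand clear of the control points, by 1.23, 0.98 and 0.64 log2 between the nearest arrays, whereas those of Eif2ak4 overlap with control.

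Eif2ak3 encodes PERK, the kinase of the endoplasmic reticulum that senses unfolded proteins. Its log2 signal was 7.83 and 7.94 in control cells and 7.98 and 8.09 in NC06 cells. The NC06 arrays were just above the control arrays, with 0.04 between the nearest. The difference of 0.15 log2 (SE 0.092, 95% interval from -0.10 to 0.39, adjusted p 0.50) was close to the 0.11 by which the arrays of either group differed. Eif2ak4 encodes GCN2, the kinase that senses uncharged tRNA when amino acids are short. Its signal was 7.44 and 7.50 in control cells and 7.27 and 7.47 in NC06 cells, so that the groups overlapped. The difference was -0.09 log2 (SE 0.10, 95% interval from -0.37 to 0.18, adjusted p 0.708), and without NC06 replicate 1 it was 0.009.

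Atf4 is the central transcription factor of the response. Its signal was 9.90 and 10.15 in control cells and 9.14 and 9.25 in NC06 cells. Both NC06 arrays were lower, although the control arrays themselves differed by 0.26, the widest gap among the controls of the 10 genes. The group means were 10.02 ± 0.18 and 9.19 ± 0.081 (SD, n = 2), a difference of -0.83 log2 (SE 0.12, 95% interval from -1.15 to -0.51), or 0.563-fold. The adjusted p was 0.155. The size of the difference put Atf4 at the 0.255th percentile of all tested genes.

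Ddit3 had the tightest replicates. Its signal was 6.74 and 6.73 in control cells and 6.33 and 6.26 in NC06 cells. The groups were 0.41 apart at their nearest arrays, against 0.01 within control and 0.07 within NC06. The difference was -0.45 log2 (SE 0.078, 95% interval from -0.65 to -0.24, adjusted p 0.191), or 0.734-fold. On the log2 scale that is a smaller difference than that of Atf4.

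Atf3 encodes a stress-induced bZIP factor, a member of the basic leucine zipper class, that often represses its targets and is known for restraining inflammatory genes in macrophages. Its signal was 8.33 and 8.40 in control cells and 7.64 and 7.95 in NC06 cells. The NC06 arrays were both lower but differed by 0.31, the widest gap within a group among the 10 genes. The difference was -0.57 log2 (SE 0.13, 95% interval from -0.91 to -0.22, adjusted p 0.231).

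Atf5 is related to ATF4 and known for its part in the response to mitochondrial stress. Its signal was 7.60 and 7.83 in control cells and 7.32 and 7.17 in NC06 cells. The groups did not overlap, with 0.28 between the nearest arrays, against 0.23 between the control arrays and 0.15 between the NC06 arrays. The difference was -0.47 log2 (SE 0.12, 95% interval from -0.79 to -0.15, adjusted p 0.243).

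The C/EBP factors are bZIP proteins that dimerise with ATF4 or CHOP. Cebpb is also a main regulator of emergency granulopoiesis and of suppressive myeloid cells. Its signal was 7.79 and 7.97 in control cells and 8.07 and 8.05 in NC06 cells. Both NC06 arrays were higher, by 0.07 at the nearest. The difference was 0.18 log2 (SE 0.096, 95% interval from -0.08 to 0.44, adjusted p 0.456). Cebpg, a partner of ATF4 that lacks an activation domain of its own, had 8.62 and 8.60 in control cells and 8.52 and 8.34 in NC06 cells. The NC06 arrays were lower by 0.09 at the nearest, less than the 0.18 between them, and the difference was -0.18 log2 (SE 0.096, 95% interval from -0.44 to 0.08, adjusted p 0.441).

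The feedback genes had the lowest differences of the 10. Trib3 encodes a pseudokinase that ATF4 and CHOP induce and that in turn restrains both. Its signal was 8.52 and 8.70 in control cells and 7.29 and 7.24 in NC06 cells. The NC06 arrays were lower by 1.23 at the nearest and differed from each other by 0.05. The difference was -1.34 log2 (SE 0.099, 95% interval from -1.61 to -1.08, adjusted p 0.0726), or 0.394-fold, and 34 genes had a smaller p than it.

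Nupr1 encodes a small chromatin-associated stress protein induced by ATF4. Its signal was 8.56 and 8.60 in control cells and 7.59 and 7.40 in NC06 cells. The groups were 0.98 apart at the nearest arrays. The difference was -1.09 log2 (SE 0.099, 95% interval from -1.35 to -0.82, adjusted p 0.0852), or 0.471-fold.

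**Figure D2:**
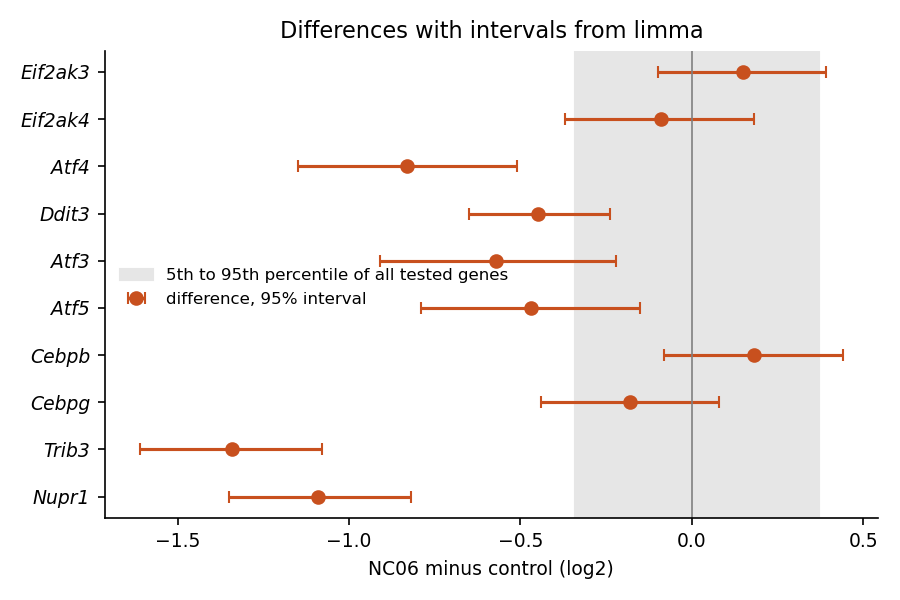
Difference between NC06 and control (log2) of each regulator, with 95% intervals from the limma fit over all genes, beside the 5th to 95th percentile of all tested genes, -0.34 to 0.37 (grey band). Trib3, Nupr1 and Atf4 lie far below the band and Atf3, Atf5 and Ddit3 just below it, while the other 4 regulators lie inside it.

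The number of calls differed between fits. With a variance prior that follows signal (limma's trend option, with robust fitting), 6 of the 10 had an adjusted p under 0.05 with lower signal and 0 with higher signal, against 3.12% and 2.44% of all tested genes. The adjusted p in that fit was 0.000262 for Trib3, 0.00054 for Nupr1, 0.00258 for Atf4, 0.0239 for Atf3, 0.0309 for Ddit3 and 0.04 for Atf5. It was 0.349 for Eif2ak3, 0.661 for Eif2ak4, 0.281 for Cebpb and 0.23 for Cebpg. When only the 13123 genes above the median signal were fitted, Trib3, Nupr1, Atf4 and Ddit3 passed, 4 of 10 with lower signal and 0 with higher signal, against 2.93% and 3.44% of those genes. Atf3 and Atf5 then had an adjusted p of 0.0582 and 0.0681. An exact permutation test of 2 arrays against 2 cannot give a two-sided p under 0.333, so no call can rest on the order of the arrays alone.

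The promoters of the regulators were searched for the C/EBP-ATF element, the composite site that dimers of ATF4 or CHOP with C/EBP factors are known to bind. The letters were TGATGNAA on either strand, which on the other strand read TTNCATCA, in the 300 bases from 250 before to 50 after each annotated start, taken from RefSeq (GRCm38.p6). All 10 regulators had at least 1 such window, and 3 held the element: Trib3, Nupr1 and Atf3, all of which had lower signal in NC06 cells. It was held by 4.51% of 27025 genes with a window. The windows of Atf4, Ddit3, Atf5, Cebpb, Cebpg, Eif2ak3 and Eif2ak4 did not hold these letters, and a cAMP response element, TGACGTCA, was in the windows of 0 of the 10 genes against 2.03% of all genes. A match is a run of letters and does not show that a factor binds. Nor does a window without these letters show that a gene lacks a site. Sites with a differing base, or outside the 300 bases, were not searched. The Atf3 sequence below holds TTACGTCA near its end, which differs from TGACGTCA in a single base.

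The 250 bases before the start of Atf3 (chr1:191183334-191183583) and of Nupr1 (chr7:126625471-126625720), both on the minus strand and written 5′ to 3′ along the gene, are shown because each holds the same letters at the same distance, the first base of the element lying 110 bases before the start. Capitals mark the element.
Atf3: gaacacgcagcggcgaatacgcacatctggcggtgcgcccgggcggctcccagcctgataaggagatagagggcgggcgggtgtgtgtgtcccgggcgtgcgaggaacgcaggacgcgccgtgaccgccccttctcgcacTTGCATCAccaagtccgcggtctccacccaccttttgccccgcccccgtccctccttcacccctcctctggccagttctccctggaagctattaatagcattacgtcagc
Nupr1: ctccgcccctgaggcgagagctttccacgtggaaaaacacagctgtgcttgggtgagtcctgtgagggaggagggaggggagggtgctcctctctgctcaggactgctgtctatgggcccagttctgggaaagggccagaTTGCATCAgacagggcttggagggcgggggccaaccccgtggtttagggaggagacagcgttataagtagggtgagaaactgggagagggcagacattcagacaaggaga

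In Trib3 the element starts at base 15 of the transcript. The same element stood in other genes of the pathway, and 30 bases around it are shown for several, Slc7a11, Vldlr and Fgf21 among them, which had higher signal in NC06 cells, to compare the sites, with the element in capitals and each sequence along its gene.
Trib3, chr2:152344028-152344057, minus strand: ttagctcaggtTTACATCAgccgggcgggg
Chac1, chr2:119351038-119351067, plus strand: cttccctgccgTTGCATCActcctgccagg
Slc1a4, chr11:20332699-20332728, minus strand: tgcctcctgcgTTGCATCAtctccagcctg
Pycr1, chr11:120643833-120643862, minus strand: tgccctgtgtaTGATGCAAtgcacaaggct
Herpud1, chr8:94386306-94386335, plus strand: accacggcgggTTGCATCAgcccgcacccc
Asns, chr6:7693214-7693243, minus strand: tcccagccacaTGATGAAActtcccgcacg
Tars, chr15:11399655-11399684, minus strand: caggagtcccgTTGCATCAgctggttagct
Slc7a11, chr3:50443661-50443690, minus strand: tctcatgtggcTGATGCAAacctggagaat
Slc7a11, chr3:50443642-50443671, minus strand: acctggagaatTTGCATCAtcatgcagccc
Vldlr, chr19:27216809-27216838, plus strand: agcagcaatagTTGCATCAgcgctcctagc
Fgf21, chr7:45615611-45615640, minus strand: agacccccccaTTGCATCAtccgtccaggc

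The other genes of the pathway were taken from 7 lists grouped by role, with 122 genes measured and none in more than 1 list. Of these, 38 had an unadjusted p under 0.05 with lower signal and 17 with higher signal, and 0 passed the adjusted threshold. The shares of all tested genes were those given above, 7.52% and 7.79%. Most of the 122 genes lay above the median signal, where genes with such a p were more frequent.

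A list of 16 genes upstream of ATF4 held eIF2 kinases, subunits of eIF2, eIF2B and the eIF2 phosphatase, and also Gcn1, Impact, Nck1 and Dnajc3. Of the 16, 6 had an unadjusted p under 0.05 with lower signal and 2 with higher signal, and the median difference was -0.13 log2. The 2 were Impact (0.27 log2, adjusted p 0.276) and Dnajc3 (0.26, adjusted p 0.276), which are neither kinases nor subunits. Eif2ak2 encodes PKR, the eIF2 kinase that senses double-stranded RNA and is induced by interferon. Its signal was 8.48 and 8.47 in control cells and 7.92 on each NC06 array, a difference of -0.56 log2 (SE 0.074, adjusted p 0.146). The groups of Eif2ak2 stood further apart than those of Eif2ak3 and Eif2ak4, and whether the kinases differ from each other was not tested. Eif2ak1, the heme-regulated kinase, had a difference of -0.14 (adjusted p 0.514). Ppp1r15b, the constitutive phosphatase subunit that restores eIF2, was at -0.33 log2 (SE 0.079, adjusted p 0.238), and Ppp1r15a, the inducible one known as GADD34 and a CHOP target, was at -0.25 (SE 0.075, adjusted p 0.276). Eif2b5, the catalytic subunit of the exchange factor that phosphorylated eIF2 blocks, was at -0.44 (SE 0.10, adjusted p 0.241).

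The amino acid genes known as ATF4 targets lay mostly on the same side as Atf4. Of 14 genes of amino acid and one-carbon synthesis, 11 had an unadjusted p under 0.05 with lower signal and 0 with higher signal, and the median was -0.45 log2. Mthfd2, the mitochondrial folate enzyme, was at 10.32 and 10.44 in control cells and 9.59 and 9.53 in NC06 cells (adjusted p 0.0966). Aldh18a1, which makes the precursor of proline, was at 9.97 and 10.17 against 9.21 and 9.27 (adjusted p 0.131), and Pycr1, which completes proline, had a difference of -1.02 log2 (SE 0.13, adjusted p 0.146). The asparagine synthetase Asns had a difference of -0.68. In the dim genes Phgdh and Cbs the groups overlapped. Of 9 amino acid transporters 6 had an unadjusted p under 0.05 with lower signal and 1 with higher signal. Slc1a4, a transporter of serine and alanine, was at 7.64 and 7.74 in control cells and 6.05 and 6.33 in NC06 cells, a difference of -1.50 log2 (SE 0.12, adjusted p 0.0793). Slc7a1, the arginine and lysine transporter, was at -0.77 (SE 0.084, adjusted p 0.103). Slc7a11, the cystine transporter, stood on the other side at 8.30 and 8.48 against 8.87 and 8.99, a difference of 0.54 (SE 0.10, adjusted p 0.205). It is also a target of NRF2.

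Of 12 genes of tRNA charging and export, NC06 was lower without overlap in all 12, against 24.4% of all tested genes, and 10 had an unadjusted p under 0.05. The differences ran from -0.77 to -0.23 log2 with a median of -0.32. Cars, the cysteinyl-tRNA synthetase, was at 8.41 and 8.54 in control cells and 7.63 and 7.78 in NC06 cells (adjusted p 0.146). Mars1, for methionine, and Tars, for threonine, were at -0.51 and -0.49 log2 (adjusted p 0.179 and 0.18).

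The remaining ATF4 and CHOP targets were divided. Of 19, 3 had an unadjusted p under 0.05 with lower signal, 4 with higher signal, and the median was 0.11 log2. The 3 were Chac1, Herpud1 and Sesn2. Chac1 encodes an enzyme that degrades glutathione, and its signal was 7.53 and 7.80 in control cells and 5.74 and 5.72 in NC06 cells, a difference of -1.93 log2 (SE 0.12, adjusted p 0.0546). Herpud1, a component of degradation at the endoplasmic reticulum, was at 10.01 and 10.06 against 9.31 on both NC06 arrays (adjusted p 0.0973). On the higher side, Map1lc3b, the autophagosome protein LC3B, had a difference of 0.38 log2 (SE 0.078, adjusted p 0.216) and Ddit4, an inhibitor of mTORC1 also induced by hypoxia, one of 0.45 (SE 0.15, adjusted p 0.308). Bcl2l11, the death factor BIM that CHOP can induce, was at 0.26 (SE 0.078), while Tnfrsf10b, the death receptor DR5, was dim at 3.75 to 3.94 with overlapping groups.

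**Figure D3:**
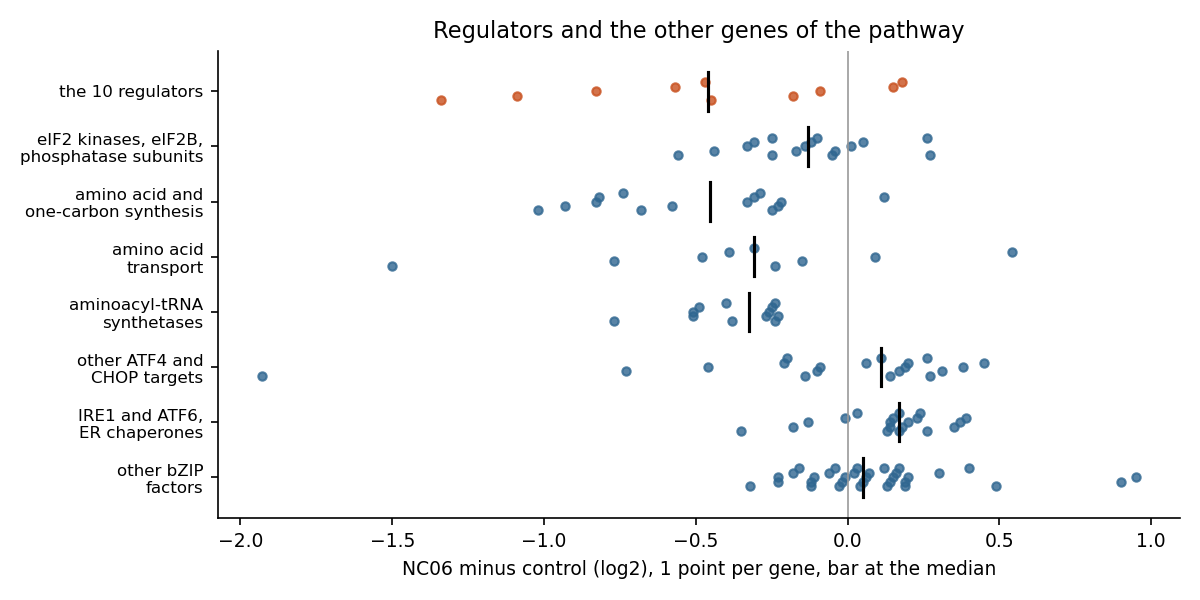
Difference between NC06 and control (log2) of the 10 regulators and of the 122 other genes of the pathway, 1 point per gene, with a bar at each median. The regulators (median -0.46), amino acid synthesis (-0.45), transporters (-0.31) and tRNA synthetases (-0.32) lie mostly below 0, the eIF2 list has a median of -0.13, and the other ATF4 and CHOP targets (0.11), the IRE1 and ATF6 branches (0.17) and the other bZIP factors (0.05) have medians above 0.

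The C/EBP-ATF element was searched in the same lists. Of 43 measured genes of the 4 lists of ATF4 targets that had a window, 13 held it, or 30.2%, against 4.51% of all genes. In the other lists it was held by 0 of 13 measured genes of the eIF2 list, 0 of 16 of the IRE1 and ATF6 list and 1 of 26 other bZIP factors, Jdp2. Eif2s3x of the eIF2 list and Aars of the tRNA synthetases, listed but not analysed here, held it too. Of the 13 ATF4 targets, 10 had an unadjusted p under 0.05 with lower signal and 1, Slc7a11, with higher signal, and the median difference was -0.49 log2. Vldlr and Fgf21, which also held it, had higher signal in NC06 cells without overlap, as did 23.3% of all tested genes. Their differences were 0.27 (SE 0.158, adjusted p 0.482) and 0.19 (SE 0.085, adjusted p 0.381). Vldlr was dim, at 4.25 and 3.85 in control cells and 4.27 and 4.36 in NC06 cells. Fgf21, at 4.86 and 4.94 against 5.14 and 5.05, was near the median signal of 4.91. The lists hold genes known as ATF4 targets, so the share describes the lists and not these cells.

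**Figure D4:**
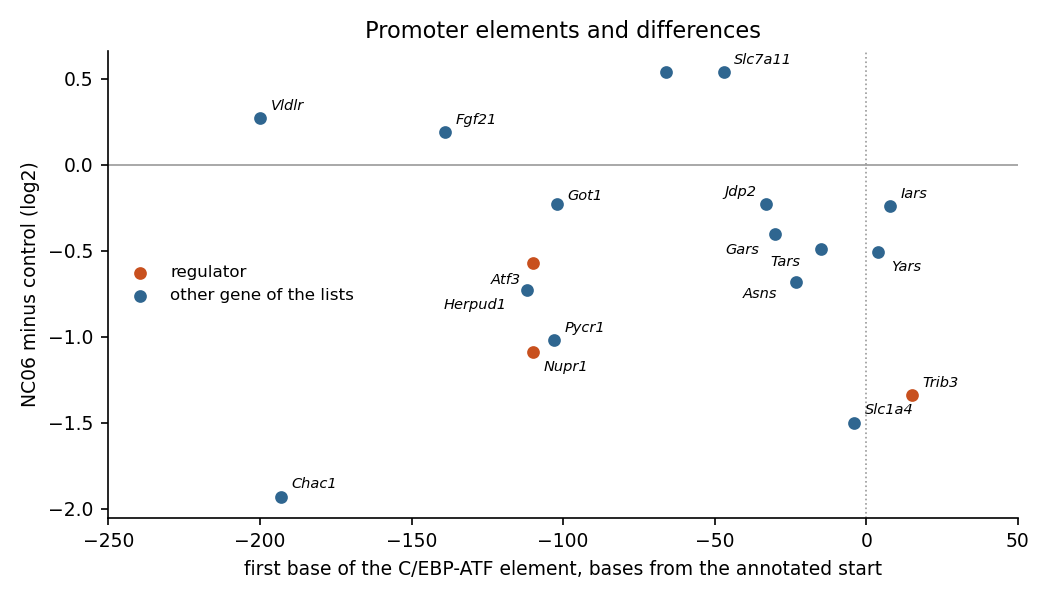
Position of the C/EBP-ATF element relative to the annotated start (bases, negative before the start) against the difference between NC06 and control (log2) for regulators (orange) and other genes of the lists (blue). Slc7a11 has 2 elements, and Atf3 and Nupr1 share a position 110 bases before the start.

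The other branches of the unfolded protein response, run by IRE1 and ATF6, had more genes with higher than with lower signal. Of 19 genes 6 had an unadjusted p under 0.05 with higher signal and 1 with lower signal, and the median was 0.17 log2. Edem1, which takes misfolded glycoproteins to degradation, was at 10.13 and 10.20 in control cells and 10.54 and 10.57 in NC06 cells (adjusted p 0.209). Sdf2l1, a chaperone cofactor, was at 0.35 (adjusted p 0.222) and the factor Atf6b at -0.35 (adjusted p 0.222). Hspa5, the chaperone BiP, had a difference of 0.18 (SE 0.082, adjusted p 0.392), and Xbp1, the target of IRE1, one of 0.13 (adjusted p 0.522), which is its mRNA level and not its splicing.

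Among 33 other bZIP factors 1 had an unadjusted p under 0.05 with lower signal and 4 with higher signal, with a median of 0.05 log2. Fos, a subunit of AP-1, was at 5.80 and 5.78 in control cells and 6.77 and 6.71 in NC06 cells (0.95 log2, SE 0.078, adjusted p 0.0793). Fosl2, another AP-1 subunit, was at 8.57 on each control array and 9.43 and 9.50 in NC06 cells (adjusted p 0.0816). Cebpd, the C/EBP factor of acute inflammation, was at 0.30 log2 (SE 0.087, adjusted p 0.267), and Cebpa and Cebpe, the factors of granulocyte development, had overlapping groups at -0.04 and 0.06.

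The genes whose profile over the 4 arrays was most like that of a regulator were found by the distance between centred log2 values, among 11550 protein-coding genes above the median signal. Nearest to Atf4 were Aldh18a1 (distance 0.056), Apol9a (0.076) and Ifit2 (0.084). Nearest to Trib3 were Irgm1 (0.057), Oas1g (0.081) and Oasl1 (0.16), and nearest to Ddit3 were Ubxn2b (0.023), Neil1 (0.030) and Tefm (0.032). With 4 arrays in 2 groups such a distance carries little beyond the difference between the groups. Irgm1, Oas1g, Oasl1 and Ifit2 are induced by interferon, and Irgm1 had the same rounded difference as Trib3, -1.34 log2.

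Of the markers of myeloid and other cells, 0 passed the adjusted threshold, and their counts at an unadjusted p under 0.05 are read against 7.52% of all tested genes with lower and 7.79% with higher signal. The macrophage list had a mean of 10.13 and 10.15 log2 in control cells and 10.56 and 10.57 in NC06 cells. In it 5 of 10 had an unadjusted p under 0.05, all higher. All 10 lay above the median signal, where such a p was more frequent. It was found for 3899 of the 13123 genes there, in either direction, when only those were fitted. The granulocyte list had means of 4.84 and 4.94 against 5.67 and 5.54, also with 5 of 10 higher, while S100a9, Mpo and Csf3r had overlapping groups. The dendritic list had 2 of 6 higher (means 4.66 and 4.63 against 4.90 and 4.95), the erythroid and megakaryocyte list 2 of 6 higher (5.61 and 5.72 against 6.47 and 6.40), the fibroblast and epithelial list 2 of 8 higher (4.66 and 4.72 against 4.80 on both), the T and NK list 1 of 7 higher (4.08 and 4.11 against 4.20 and 4.12) and the B cell list 2 of 6 lower (5.49 and 5.40 against 5.32 and 5.39). The part of these marker values in the differences of the stress regulators was not tested.

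**Figure D5:**
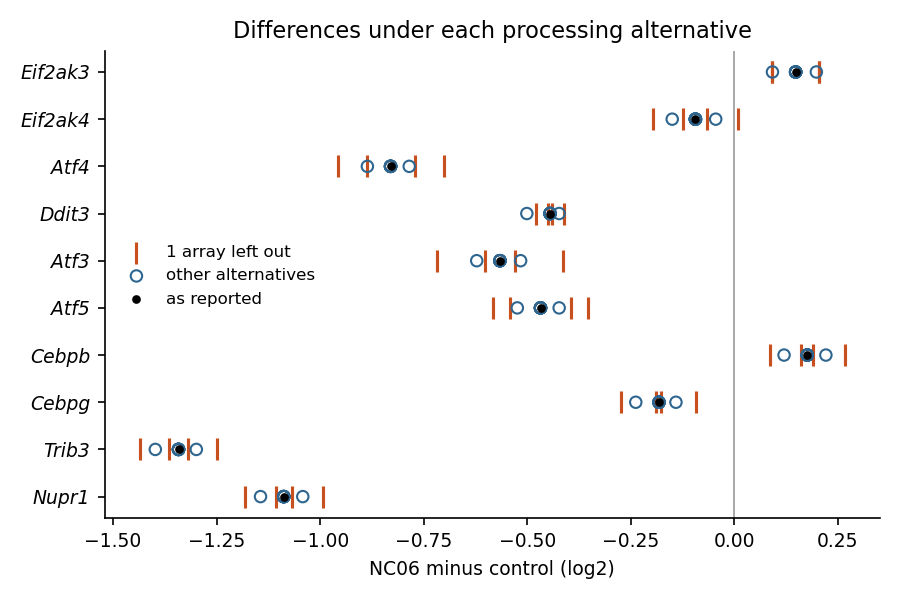
Difference between NC06 and control (log2) of each regulator as reported (black) and under each processing alternative (blue circles) or with 1 array left out (orange ticks). All values of Trib3, Nupr1, Atf4, Atf3, Atf5 and Ddit3 stay below 0, and 1 value of Eif2ak4 crosses it. Only the normalizations and the arrays left out move a value, and the other alternatives repeat the difference as reported.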

How the data were processed

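RNA from 4 samples of J774M cells was measured on whole-transcript Affymetrix arrays, 1 per sample, and groups and replicate numbers came from the sample titles. The deposited log2 signals were used without change; the submitters' processing notes name Partek, and the sources used here do not state its version or the normalization. A deposited table of the authors adds ratios of NC06 over control and a p-value. Those ratios equalled the differences of the log2 values with a largest deviation of 8.8e-05. Probe sets were named from the platform annotation (23521 with a single gene) or the deposited table where RefSeq held the symbol (4311), and 1820 with several genes were left out, which gave 26246 genes, the brightest probe set standing for each. limma 3.58.1 in R 4.3.3 (lmFit and eBayes, two-sided, no trend) was fitted to all genes with Benjamini-Hochberg adjustment and a threshold of 0.05, without a filter, after a check on simulated data. Python 3.11.15 with pandas 2.3.3 and numpy 2.4.6 made the tables. The members, lists and tests were chosen with earlier results of these data known. From each pathway list the 3 genes with the smallest p were to be named, with the 3 genes nearest in profile to Atf4, Ddit3 and Trib3, and further genes were named after their values were seen; 1 gene of that rule is not reported here. Of 128 pathway genes and 57 markers, 6 and 4 were not analysed here. The first and second deposited ratios set same-numbered arrays against each other, with largest deviations of 2.4e-15 and 2.6e-15 log2. Beyond that the replicate numbers were not shown to pair the samples: deviations of same-numbered arrays correlated at 0.0325 across genes. The number of arrays limits the precision.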

Additional observations from a re-analysis of the deposited data

How the results depend on the processing

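The alternatives changed the normalization (quantile, or centring each array on its median), the genes kept (all but the lowest 25% by signal, or those above the median), the variance prior (trend and robust), the probe set of a gene (mean or dimmest), the naming (platform names alone), the pairing (replicate block), the test (deposited p-values), the threshold (0.10) and the arrays (each left out in turn). The number of the 10 regulators past the adjusted threshold was 0 as reported, 2 without the lowest 25%, 4 above the median signal, 6 with the trend and robust prior, 1 with platform names alone and 2 at an adjusted p under 0.10. It stayed 0 under quantile normalization, median centring, the mean or dimmest probe set, the deposited p-values and the replicate block. Over all genes these fits called 0 as reported, 133 without the lowest 25%, 836 above the median, 1459 with the trend and robust prior, 63 with platform names alone, 13 with quantile normalization, 26 with median centring, 2 each with the mean or dimmest probe set and 117 at the threshold of 0.10. With the deposited p-values 0 of 26098 genes passed, and with the replicate block 0 of 26246. In those 2 settings the count of regulators was therefore bound to be 0. The cause of the differing counts was not tested. The filters and platform names also leave a smaller number of genes in the fit. With the replicate block 6 regulators kept an unadjusted p under 0.05, the same count as without it. Over all 26246 genes 3492 had such a p with the block and 4018 without it. With the deposited p-values of the authors 4 regulators and 3550 of 26098 genes had one. Atf3 and Atf5 had deposited p-values of 0.0692 and 0.0749. The median difference was -0.513 after median centring, which shifted the median of all genes to -0.054, and ran from -0.511 to -0.402 with 1 array left out. Of 78 values of Trib3, Nupr1, Atf4, Atf3, Atf5 and Ddit3 under the alternatives, all 78 were below 0. Only the normalizations and the arrays left out moved these differences. Under the other alternatives each difference was the same as reported, so those values repeat it and are no check of its sign. Without control replicate 2, Atf3 and Atf5 lost an unadjusted p under 0.05, and without NC06 replicate 2 Atf5 did. The difference of Eif2ak4 ran from -0.197 to 0.009 with 1 array left out, reaching 0.009 without NC06 replicate 1, on the other side of 0 from -0.094 as reported. Cebpb ran from 0.09 to 0.27 and Cebpg from -0.27 to -0.09.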
